A study of Mus musculus with 3 samples.

Results

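A set of 8 genes that encode Wnt ligands, Wnt3, Wnt6, Wnt10a, Wnt11, Wnt4, Wnt5a, Wnt5b and Wnt9b, were followed in single cells of mouse small intestinal organoids. They were picked by symbol, as a family, with earlier results of these data known, and make up 8 of the 19 Wnt genes and of the 32285 genes in the deposited tables. The organoids came from C57BL/6 mice aged 7 to 8 weeks, all given 2 tamoxifen doses of 2 mg. The 3 genotypes compared had 1 library each: WT, LApc (Lgr5-CreERT2;Apc fl/fl) and LApcL, which carries the alleles of LApc together with Lef1 fl/fl, taken 21, 29 and 21 days after tamoxifen and sequenced at passage 3, culture day 6. The Cre is expressed from the Lgr5 locus, so recombination starts in Lgr5-positive crypt cells, and the methods describe LApc and LApcL culture that had no added growth factors at first and, from passage 3, combinations of recombinant Wnt3a, R-spondin1, noggin and epidermal growth factor. Which medium the sequenced organoids of each genotype had is not given in the sources used here. The later day of LApc, and any difference in medium between the libraries, therefore cannot be told apart from genotype, and with 1 library a genotype no test between genotypes was possible. All intervals below are 95% intervals for counting error only.

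Wnt ligands are secreted proteins that carry a lipid added by Porcupine (Porcn) and are escorted out of the cell by Wntless (Wls). They bind Frizzled receptors with the co-receptors Lrp5 and Lrp6, which stops a complex containing Apc from degrading β-catenin, and β-catenin then acts with TCF/LEF factors such as Lef1 on target genes. In the crypt, Wnt3 is known as the ligand of Paneth cells, the granule-bearing neighbours of the stem cells, whereas Wnt4, Wnt5a and Wnt5b are better known from non-canonical signalling and from stromal cells.

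The genes lie on 6 chromosomes, and 2 pairs of them are neighbours (mouse build GRCm38, GENCODE vM21). Wnt6 (chr1:74771892-74785322) and Wnt10a (chr1:74791516-74804179) are on the same strand, 6193 bases apart, with 0 genes between them. Wnt9b (chr11:103727364-103749821, minus strand) and Wnt3 (chr11:103774150-103817957, plus strand) point away from each other across 24328 bases, again with 0 genes between, although RefSeq also lists a longer Wnt9b model that runs past the start of Wnt3. Wnt4 is at chr4:137277489-137299726, Wnt5b at chr6:119432531-119544347, Wnt11 at chr7:98835112-98855195 and Wnt5a at chr14:28504750-28527448. The start regions of 3 of them are shown, since Wnt6 gave the highest member total, Wnt3 the Paneth-like signal and Wnt9b the largest gap between LApc and LApcL. Each is 300 bases from RefSeq (GRCm38.p6), running 5′ to 3′ on the gene's strand from 250 bases before the start to 50 after it. Capitals mark a TCF/LEF core match.
Wnt6, chr1:74771642-74771941, plus strand: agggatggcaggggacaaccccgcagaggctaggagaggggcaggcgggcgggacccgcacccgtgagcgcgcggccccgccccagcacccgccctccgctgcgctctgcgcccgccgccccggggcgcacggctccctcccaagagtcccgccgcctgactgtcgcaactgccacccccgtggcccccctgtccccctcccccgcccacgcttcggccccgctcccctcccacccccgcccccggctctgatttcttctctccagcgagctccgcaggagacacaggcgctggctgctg
Wnt3, chr11:103773925-103774224, plus strand: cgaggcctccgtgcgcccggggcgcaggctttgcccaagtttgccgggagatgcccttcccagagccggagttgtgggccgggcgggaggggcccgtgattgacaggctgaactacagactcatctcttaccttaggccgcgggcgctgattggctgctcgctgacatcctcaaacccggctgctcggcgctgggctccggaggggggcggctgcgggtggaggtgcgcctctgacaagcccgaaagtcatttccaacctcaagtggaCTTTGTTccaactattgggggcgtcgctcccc
Wnt9b, chr11:103749772-103750071, minus strand: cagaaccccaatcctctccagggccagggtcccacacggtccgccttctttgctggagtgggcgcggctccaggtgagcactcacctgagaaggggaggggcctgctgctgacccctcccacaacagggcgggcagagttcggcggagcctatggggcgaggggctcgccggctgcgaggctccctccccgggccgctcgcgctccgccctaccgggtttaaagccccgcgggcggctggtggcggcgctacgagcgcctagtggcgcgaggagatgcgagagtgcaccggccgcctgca
The core was searched on both strands as CTTTGAA or any of its spellings that end in AT, TA or TT. RefSeq start regions were found for 6 members (9 regions), and 3 of the 9 regions held a match. Wnt3 held CTTTGTT, 1 of the 2 Wnt11 regions held a match on the opposite strand, and 1 of the 3 Wnt5b regions held CTTTGAT. Over all 32851 RefSeq start regions of the same length, 16.9% held one. The Wnt6 and Wnt9b windows above held none of these letters, which says nothing about binding elsewhere.

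The libraries held 11411 (WT), 10706 (LApc) and 12068 (LApcL) barcodes. Of these, 3195 barcodes occurred in all 3 libraries, 26.5% to 29.8% of each. Barcodes found in more than 1 library are called shared here and were left out. Those with at least 1000 UMIs carried summed endothelial marker levels of 2938 to 3247 UMIs scaled to a total of 1000000 (CPM). Their epithelial markers summed to 58.6 to 419 CPM. Among barcodes of 1 library, 47.0% to 63.1% exceeded 20% mitochondrial UMIs and were left out too. Cells with at least 10000 UMIs ("deep") numbered 1208, 2161 and 1931 in WT, LApc and LApcL and were thinned to 10000 UMIs each; cells with 1000 to under 10000 UMIs ("shallow") were thinned to 1000. Paneth-like cells, with Defa24, Defa22 and Lyz1 at 2% or more of UMIs, numbered 2, 29 and 60 among the deep cells. In LApc and LApcL these cells held the Paneth metalloproteinase Mmp7, which the rule did not use, at 7177 and 9995 CPM. The 2 WT cells held no Mmp7 UMI and had more goblet-marker UMIs (125159.5 CPM summed) than Paneth-marker UMIs (48684 CPM), so they go against that name and no Paneth-like value is given for WT. Outside the Paneth-like cells, epithelial markers (Epcam, Cdh1, Krt8, Vil1) summed to 2694, 3775 and 4234 CPM in the deep cells, fibroblast markers (5 genes) to 1.74, 0.300 and 0.431 CPM, immune markers (4 genes) to 0.389, 0.433 and 0.292 CPM and endothelial markers (5 genes) to 1.29, 17.8 and 4.97 CPM. Enterocyte markers (6 genes) summed to 11647 CPM in WT, 1.68 CPM in LApc and 0.850 CPM in LApcL, so genotype and differentiation state move together in every comparison with WT. The part of that difference in the member levels was not tested. Apc itself was at 19.8, 92.4 and 99.6 CPM and Lef1 at 0.912, 79.4 and 57.7 CPM in the same cells. Because these are 3′ tags, which need not cover the floxed part of either gene, these levels do not check the deletions.

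Wnt6 and Wnt10a, the neighbours on chromosome 1, went from no UMI in WT to the 2 highest member counts in LApc, and both were lower in LApcL than in LApc. In the deep cells other than Paneth-like, Wnt6 had 0 UMIs in 1206 WT cells, 4936 UMIs in 2132 LApc cells (232 CPM, 225 to 238) and 3133 UMIs in 1871 LApcL cells (167 CPM, 162 to 173). Its share of positive cells was 0%, 59.4% and 63.4%. With WT set at a floor of 3 UMIs over the library (0.249 CPM), the limit used here for every count of 0, Wnt6 was at least 931-fold higher in LApc than in WT and at least 673-fold higher in LApcL. The level in LApcL was 0.723 times that in LApc (0.691 to 0.757), while the share of positive cells was no lower. It was 0.927 once LApc was given the class shares of LApcL (classes of cycling, Lgr5-positive and other cells, described with their levels further on).

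Wnt10a followed the same order at a lower count. It had 0 UMIs in WT, 1224 in LApc (57.4 CPM, 54.2 to 60.7) and 390 in LApcL (20.8 CPM, 18.8 to 23.0), with 0%, 26.5% and 15.6% of cells positive. Against the same WT floor it was at least 231-fold higher in LApc and at least 83.8-fold higher in LApcL. Its level in LApcL was 0.363 times that in LApc (0.323 to 0.407), beside 0.723 for Wnt6. The unthinned counts gave 0.515 for this ratio, and equal class shares gave 0.505, neither of which passes 2-fold.

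Wnt4 and Wnt5b were sparse in WT and 8.91-fold to 10.5-fold higher in LApc. Wnt4 had 7 UMIs in WT (0.580 CPM), 130 in LApc (6.10 CPM, 5.09 to 7.24) and 64 in LApcL (3.42 CPM, 2.63 to 4.37). That is a 10.5-fold higher level in LApc than in WT (4.96 to 26.6) and 0.561 times the LApc level in LApcL (0.409 to 0.762). The Wnt5b counts were 8 in WT (0.663 CPM), 126 in LApc (5.91 CPM, 4.92 to 7.04) and 94 in LApcL (5.02 CPM, 4.06 to 6.15). Wnt5b was 8.91-fold higher in LApc than in WT (4.39 to 21.1), and its ratio of LApcL to LApc, 0.850, has an interval that includes 1 (0.644 to 1.12). Of the 8 WT Wnt5b UMIs, 7 lay in the 393 cells rich in enterocyte genes (1.78 CPM there). The shared, endothelial-marked barcodes, which may not be cells of these organoids and whose origin was not tested, held Wnt4 when thinned to 1000 UMIs at 18.8, 16.6 and 17.1 CPM in the 3 libraries, against 0, 7.50 and 4.81 CPM in the deep cells at that depth. Wnt11 was likewise at 2.48, 6.12 and 2.50 CPM in those barcodes and at 0, 0.469 and 0.534 CPM in the deep cells.

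Wnt9b was the member that differed most between LApc and LApcL. It had 2 UMIs in WT (0.166 CPM), 46 in LApc (2.16 CPM, 1.58 to 2.88) and 1 in LApcL (0.0534 CPM). LApc was 13.0-fold above WT (3.40 to 111), and LApcL was at 0.0248 times LApc (0.000614 to 0.145). The LApc UMIs came from 1.41% of the cells, so both ratios rest on few cells of 1 library. WT and LApcL had too few UMIs for a ratio to each other.

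Summed over all deep cells other than Paneth-like, Wnt3 was not higher in the mutants than in WT. It had 37 UMIs in WT (3.07 CPM, 2.16 to 4.23), 47 in LApc (2.20 CPM, 1.62 to 2.93) and 39 in LApcL (2.08 CPM, 1.48 to 2.85), and the ratio of LApc to WT was 0.719 (0.457 to 1.14). In WT it made up 67.3% of all member UMIs, against 0.720% in LApc. Cells rich in goblet genes, 34, 12 and 15 in number, held 11, 11 and 23 of these UMIs, which is a higher level per cell in the mutants, and the ratio of LApcL to WT was 0.389 without such cells against 0.679 (0.422 to 1.10) with them. With a mitochondrial limit of 10% it was 0.254. The same stricter limit took the ratio of LApc to WT to 0.439.

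Wnt11 and Wnt5a were close to the detection limit in every genotype. Wnt11 had 1, 12 and 9 UMIs in WT, LApc and LApcL (0.0829, 0.563 and 0.481 CPM), a 6.79-fold higher level in LApc, with an interval from about no difference up to 290.2, that fell to a bound of at least 1.32-fold with another random thinning. Wnt5a had 0, 10 and 4 UMIs, which gives a bound of at least 1.89-fold for LApc against WT and a ratio of 0.456 for LApcL against LApc (0.104 to 1.58). The unthinned counts put Wnt5a 25.0-fold higher in LApc than in WT, but 1 LApc cell alone held 8 Wnt5a UMIs.

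**Figure D1:**
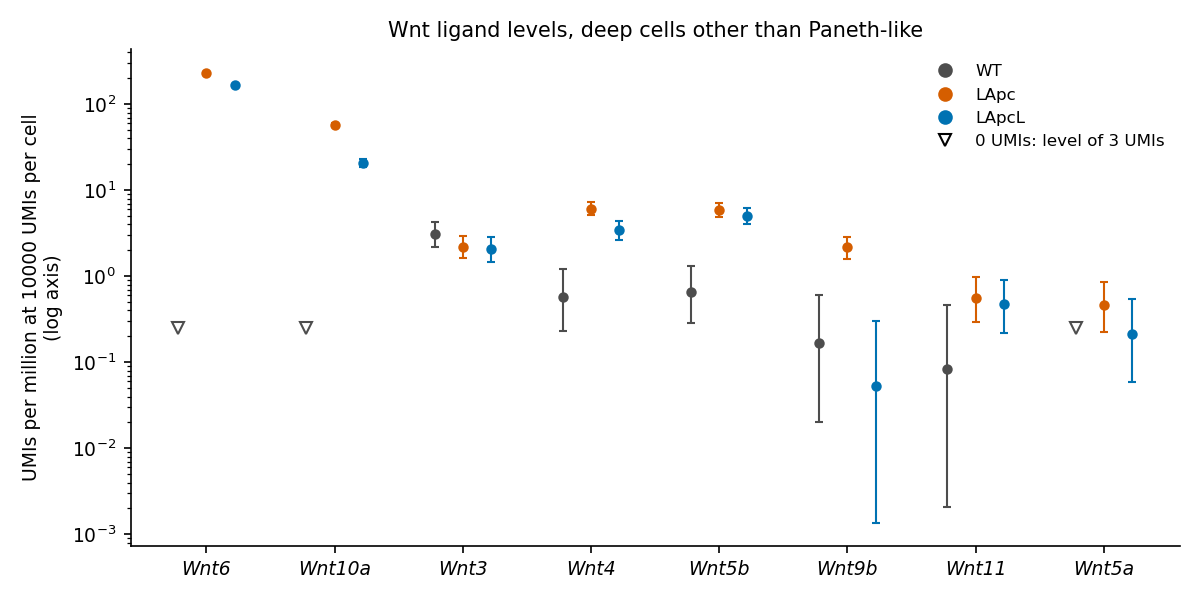
Level of each ligand in deep cells other than Paneth-like, in CPM after thinning every cell to 10000 UMIs (log axis). Points are 1 library each with the exact 95% Poisson interval, and open triangles mark 0 UMIs, drawn at the level of 3 UMIs; Wnt6 and Wnt10a are at 0 in WT and highest in LApc, while Wnt3 is at 2.08 to 3.07 in all 3 libraries.

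Counted by gene, 6 of the 8 ligands were more than 2-fold higher in LApc than in WT (Wnt6, Wnt10a, Wnt11, Wnt4, Wnt5b and Wnt9b) and 0 were lower. With a minimum of 20 UMIs over both groups, 5 of 6 ligands were higher (Wnt11 drops out). Across all 13846 genes with that minimum, 30.3% were higher and 12.2% lower, and the median gene was 0.52 higher on the log2 scale. Between LApcL and LApc, 0 ligands were higher and 3 were lower (Wnt10a, Wnt5a and Wnt9b). With the minimum, 2 of 7 were lower, where 4.29% of all genes were higher and 8.72% lower. Between LApcL and WT, 5 were higher (Wnt6, Wnt10a, Wnt11, Wnt4 and Wnt5b) and 0 lower. With the minimum, 4 of 5 were higher, where 30.5% of all genes were higher and 13.3% lower. These counts changed at their edges. With a mitochondrial limit of 10%, 5 ligands were higher and Wnt3 was lower in LApc against WT, 5 were lower in LApcL against LApc, and 4 were higher and Wnt3 lower in LApcL against WT. Wnt3 was also lower in LApcL against WT with a Paneth-like threshold of 1% (0.473) and without the goblet-gene-high cells (0.389). Another thinning seed put Wnt11 higher in LApcL than in LApc (2.12) and took Wnt5a out of the lower group. Scaling by median-of-ratios factors moved all ratios of LApc to WT down by 0.40 and those of LApcL to WT down by 0.39 on the log2 scale. The 6 ligands stayed more than 2-fold higher in LApc under it, from 5.14-fold for Wnt11 to at least 705-fold for Wnt6.

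**Figure D2:**
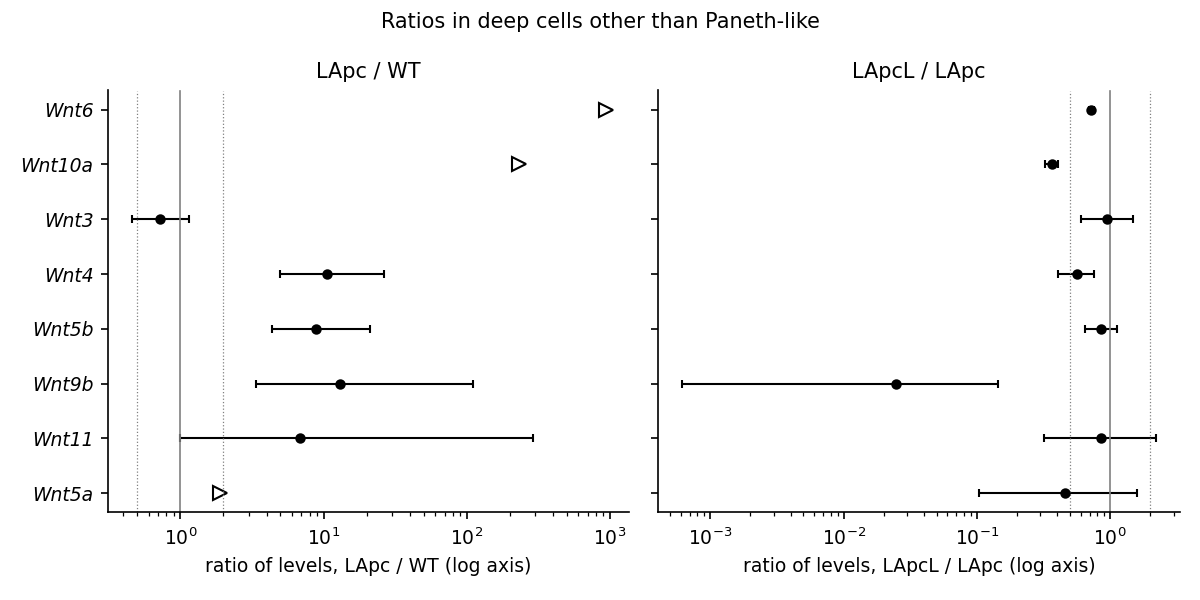
Ratios of ligand levels in deep cells other than Paneth-like, LApc over WT (left) and LApcL over LApc (right), on log axes. Points carry exact conditional 95% intervals, open triangles are lower bounds against 0 WT UMIs, and dotted lines mark 2-fold; in the left panel 6 ligands lie past the upper line, and in the right panel Wnt9b is farthest to the left at 0.0248.

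Summed over the 8 ligands, deep cells other than Paneth-like held 55 UMIs in WT (4.56 CPM), 6531 in LApc (306 CPM) and 3734 in LApcL (199.6 CPM). At 10000 UMIs a cell, 3.81%, 66.0% and 68.4% of cells had any of them, and 0.166%, 27.5% and 18.2% had 2 or more of the genes. Wnt6 alone gave 75.6% of the LApc and 83.9% of the LApcL UMIs.

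The shallow cells gave the same order for Wnt6 against WT but not the difference between LApcL and LApc. Wnt6 had 0 UMIs in 1357 WT cells, 143 in 1107 LApc cells (129 CPM) and 233 in 1861 LApcL cells (125 CPM), with 10.7% positive in both mutants. It was at least 58.4-fold higher in LApc and at least 56.6-fold higher in LApcL than in WT, and the ratio of LApcL to LApc was 0.969 (0.784 to 1.20). Wnt10a had 0, 19 and 23 UMIs (at least 7.76-fold and 5.59-fold higher than WT), with a ratio of LApcL to LApc of 0.720 (0.375 to 1.40). The other 6 ligands had at most 4 UMIs in any library. Only Wnt6 and Wnt10a passed 2-fold upward in the shallow cells in LApc against WT (with the minimum of 20 UMIs, 1 of 1, Wnt6), where 17.8% of all genes were higher and 16.6% lower, and the same pair did so in LApcL against WT (2 of 2 with the minimum), where 20.5% were higher and 18.0% lower. Between LApcL and LApc, 1 ligand (Wnt5b, 3 against 4 UMIs) was lower, with 3.56% of all genes higher and 5.03% lower. Its direction turned with another thinning seed (1.07), unthinned (1.15) and at 500 UMIs (2.08), and the minimum of 20 UMIs left 0 of 2. Deep cells thinned to 1000 UMIs, the depth of the shallow cells, held Wnt6 at 0, 229.8 and 188 CPM. The shallow cells of both mutants thus had a lower level than the deep ones at matched depth.

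Wnt3 was far higher in Paneth-like than in other deep cells of both mutants. In LApc, the 29 Paneth-like cells held 37 Wnt3 UMIs (128 CPM, 89.8 to 176), with 44.8% of cells positive against 0.797% of the other deep cells. In LApcL, 64 Wnt3 UMIs lay in the 60 Paneth-like cells, a level of 107 CPM (82.1 to 136), with 51.7% positive against 1.12%. The level was thus 57.9-fold (36.6 to 91.0) and 51.2-fold (33.8 to 78.3) that of the other deep cells. These are cells of 1 library each, not replicates.

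Wnt6 and Wnt10a were also counted in the Paneth-like cells. In LApc, Wnt6 had 36 UMIs there (124 CPM, 86.9 to 172), which is 0.536 times the level of the other deep cells (0.375 to 0.743). In LApcL it had 12 (20.0 CPM, 10.3 to 34.9), 0.119 times the other cells (0.0616 to 0.209). The Wnt10a count in LApc was 17 (58.6 CPM, 34.1 to 93.9), 1.02 times the other cells (0.593 to 1.64), and in LApcL 24 (40.0 CPM, 25.6 to 59.5), 1.92 times (1.21 to 2.90). With deep cells taken from 20000 UMIs the Wnt6 ratio in LApc was 0.234, and with size factors the Wnt10a ratio in LApcL was 2.66. The shared barcodes of LApc and LApcL, whose origin was not tested, held Wnt6 at 3.94 CPM (1.80 to 7.47) and 3.33 CPM (1.44 to 6.56) at 1000 UMIs, with a Wnt6 UMI in 0.394% and 0.333% of them (median depths 1905 and 1990.0 UMIs, against 26379 and 23165 in Paneth-like cells). Unthinned, where deeper barcodes weigh more, the same barcodes held Wnt6 at 33.7 CPM in LApc (29.0 to 39.0) and 18.0 CPM in LApcL (14.7 to 21.8). The LApcL value is close to the 20.0 CPM of the LApcL Paneth-like cells. The part of free RNA in the Paneth-like values was not tested. Removing the cells with the highest doublet scores left 29 and 54 Paneth-like cells and Wnt6 ratios of 0.541 and 0.0886.

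The remaining ligands were at or near 0 there: Wnt4 and Wnt11 had 0 UMIs in the Paneth-like cells of both mutants, Wnt5b had 2 and 4, Wnt9b had 0 and 1, and Wnt5a had 0 and 2, the 2 from a single cell. In LApc 1 ligand (Wnt3) was more than 2-fold higher in Paneth-like cells and 0 were lower (1 of 6 and 0 with the minimum of 20 UMIs), where 8.73% of all genes were higher and 16.0% lower. In LApcL 2 were higher (Wnt3, and Wnt5a on those 2 UMIs) and 1 lower (Wnt6), or 1 and 1 of 5 with the minimum, where 7.08% of all genes were higher and 27.8% lower. Median-of-ratios factors moved all ratios of Paneth-like to other deep cells up, by 0.22 on the log2 scale in LApc and 0.47 in LApcL. The shares of higher and lower genes therefore depend on the scaling. Wnt3 gave 40.2% of the member UMIs in LApc Paneth-like cells and 59.8% in LApcL, against 39.1% and 11.2% for Wnt6.

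**Figure D3:**
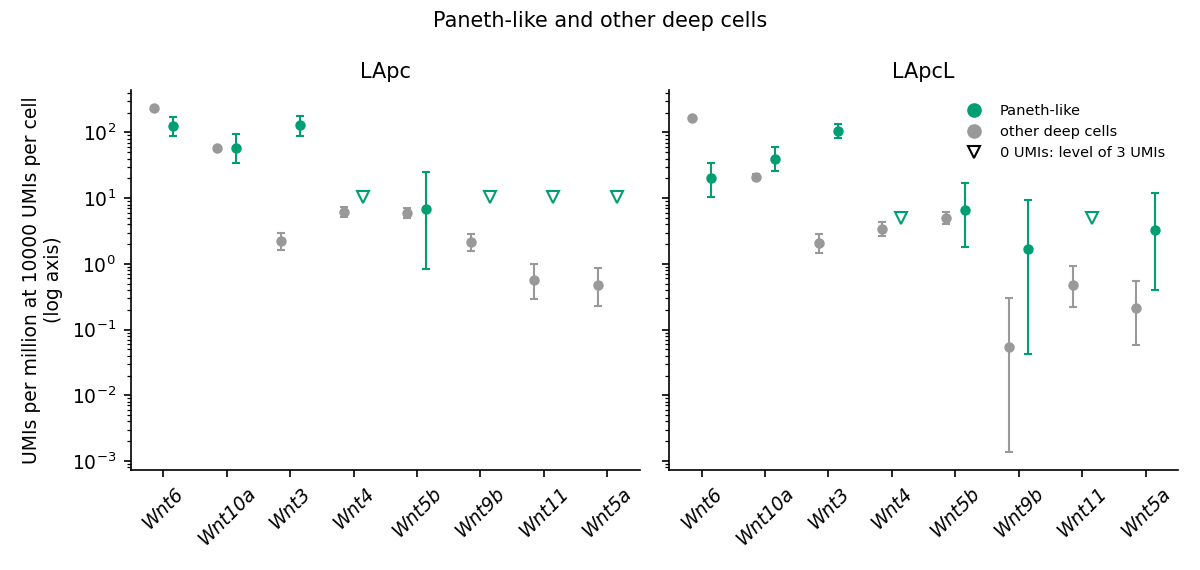
Ligand levels in Paneth-like and other deep cells of LApc (left) and LApcL (right), in CPM at 10000 UMIs a cell (log axis), with exact 95% Poisson intervals and open triangles for 0 UMIs at the level of 3 UMIs. Wnt3 is at 128 and 107 in Paneth-like cells against 2.20 and 2.08 elsewhere, whereas Wnt6 is lower in the Paneth-like cells.

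The deep cells were further divided by marker genes into exclusive classes, without use of the ligands. Wnt3 was also high in the cells rich in goblet genes (Muc2, Tff3, Spink4, Zg16 and Fcgbp at 1% or more of UMIs). There it reached 32.4 CPM in 34 WT cells, 91.7 CPM in 12 LApc cells and 153 CPM in 15 LApcL cells. The class also held Paneth genes: the 10 Paneth markers summed to 3773 CPM in WT, 18900.3 CPM in LApc and 20249 CPM in LApcL, against 231, 656 and 1305 CPM over all deep cells other than Paneth-like. Mmp7 was at 1.59, 10733 and 10006 CPM there. The part of this Paneth-gene content in the Wnt3 level was not tested.

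Among the 3 largest LApc classes, Wnt6 and Wnt10a were lowest in the cycling cells. Wnt6 was at 122 CPM in 566 Mki67-positive LApc cells, 170.2 CPM in 342 Lgr5-positive cells without Mki67 and 302 CPM in the 1212 cells with neither. Wnt10a was at 21.9, 37.7 and 79.5 CPM in the same classes. In LApcL the gradient was flatter, with Wnt6 at 166 CPM (830 cells), 151 CPM (559 cells) and 194 CPM (467 cells) and Wnt10a at 21.4, 17.7 and 23.8 CPM. In Mki67-positive cells Wnt6 was thus higher in LApcL (157 to 175 CPM) than in LApc (113 to 132 CPM), the opposite of the order over all deep cells, and the intervals of Wnt10a overlapped. The cells with neither marker made up 56.8% of the LApc and 25.0% of the LApcL deep cells other than Paneth-like. With the LApc class levels weighted by the LApcL class shares, a step added after seeing the data, LApc came to 181 CPM for Wnt6 and 41.3 CPM for Wnt10a, against 167 and 20.8 CPM in LApcL. Lgr5 itself differed between these libraries, so the classes are not independent of genotype.

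**Figure D4:**
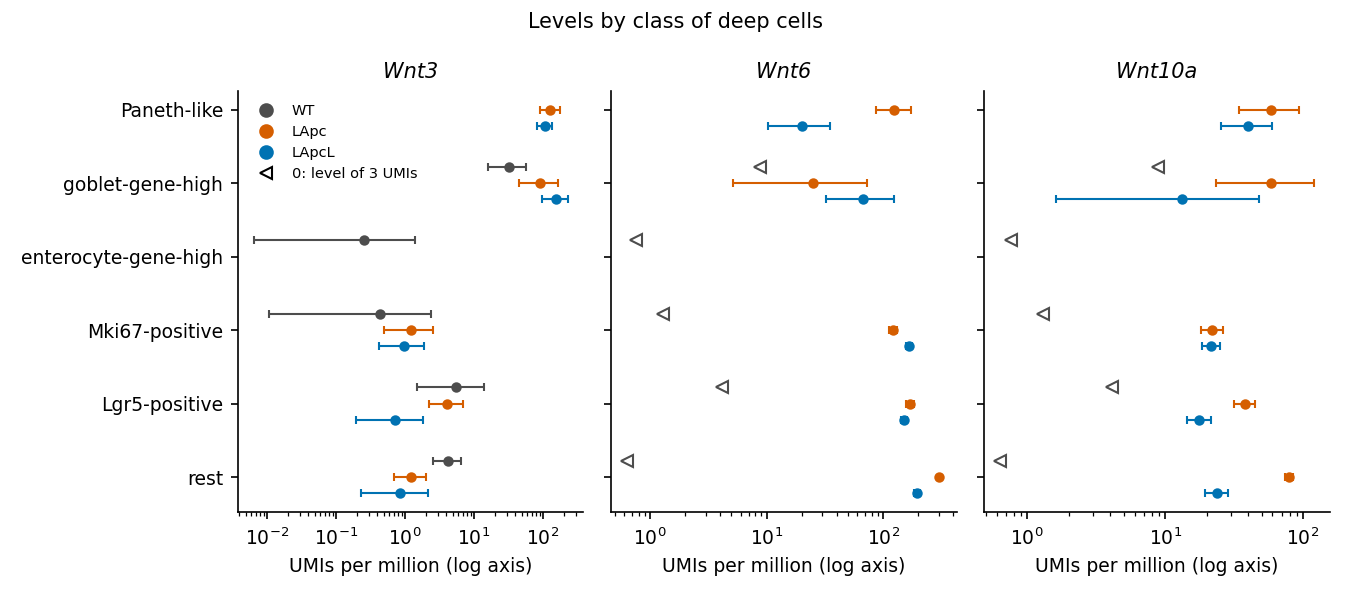
Levels of Wnt3, Wnt6 and Wnt10a by class of deep cells, in CPM (log axes), with exact 95% Poisson intervals, open triangles for 0 UMIs at the level of 3 UMIs, and classes under 10 cells left out. Wnt3 peaks in Paneth-like and goblet-gene-high cells, and Wnt6 and Wnt10a are highest in the LApc cells with neither Mki67 nor Lgr5.

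The 2 neighbouring genes were often found in the same cells. In LApc, 40.2% (37.5 to 43.0) of 1275 Wnt6-positive deep cells had a Wnt10a UMI, against 7.00% of 886 Wnt6-negative ones. In LApcL these shares were 20.8% of 1195 and 8.29% of 736 cells. Wnt3-positive cells, of which 13 of 30 in LApc and 31 of 52 in LApcL were Paneth-like, held Wnt6 less often, in 16.7% and 15.4% against 59.6% and 63.2% of the cells without Wnt3. Their share with Wnt10a was 36.7% (19.9 to 56.1) against 26.5% in LApc and 23.1% (12.5 to 36.8) against 15.8% in LApcL. Of the 30 Wnt9b-positive LApc cells, 90.0% held Wnt6 and 86.7% held Wnt10a, against 58.6% and 25.8% of the cells without a Wnt9b UMI. The UMIs were concentrated, with 43.1% and 40.7% of unthinned Wnt6 UMIs and 59.6% and 62.1% of Wnt10a UMIs in the top 10% of cells in LApc and LApcL. Of 10 other genes within 100 kb of the Wnt6 and Wnt10a pair, 6 had at least 20 UMIs, and 3 of these were higher in LApc than in WT (Cyp27a1, Prkag3 and Ttll4) and 3 lower (Cdk5r2, Cryba2 and Fev), beside 30.3% and 12.2% of all genes. Of 6 genes near the Wnt9b and Wnt3 pair, 3 had at least 20 UMIs, 1 of them higher (Nsf) and 1 lower (Rprml).

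Cells were also split by whether a Lef1 UMI was present. In LApc, 942 Lef1-positive cells held Wnt9b at 4.25 CPM (3.03 to 5.78) against 0.504 CPM (0.185 to 1.10) in 1190 cells without Lef1. Wnt6 was at 311 against 169 CPM and Wnt10a at 78.0 against 41.1 CPM. Wnt5b was also higher in the Lef1-positive cells, at 7.86 CPM (6.17 to 9.86) against 4.37 CPM (3.26 to 5.73), whereas Wnt4 was at 4.56 CPM (3.30 to 6.15) against 7.31 CPM (5.86 to 9.02), with overlapping intervals. Of the other Wnt genes in LApc, Wnt7b was lower in the Lef1-positive cells, at 7.22 CPM (5.61 to 9.15) against 13.9 CPM (11.8 to 16.2). Wnt10b (5.63 against 2.27 CPM) and Wnt16 (4.99 against 1.76 CPM) were higher in them. In LApcL, where 678 cells still had a Lef1 UMI, Wnt6 was at 154 against 175 CPM and Wnt10a at 15.9 against 23.6 CPM. So the LApc order of Wnt6 and Wnt10a was not seen in LApcL. Among deep cells other than Paneth-like, 290 in LApc and 0 in WT and LApcL had a UMI of the neuropeptide gene Npy at equal depth, with Wnt6 at 326 CPM against 217 CPM in the rest and Wnt10a at 95.2 against 51.5 CPM. Without them the ratio of LApcL to LApc was 0.773 for Wnt6 and 0.405 for Wnt10a.

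**Figure D5:**
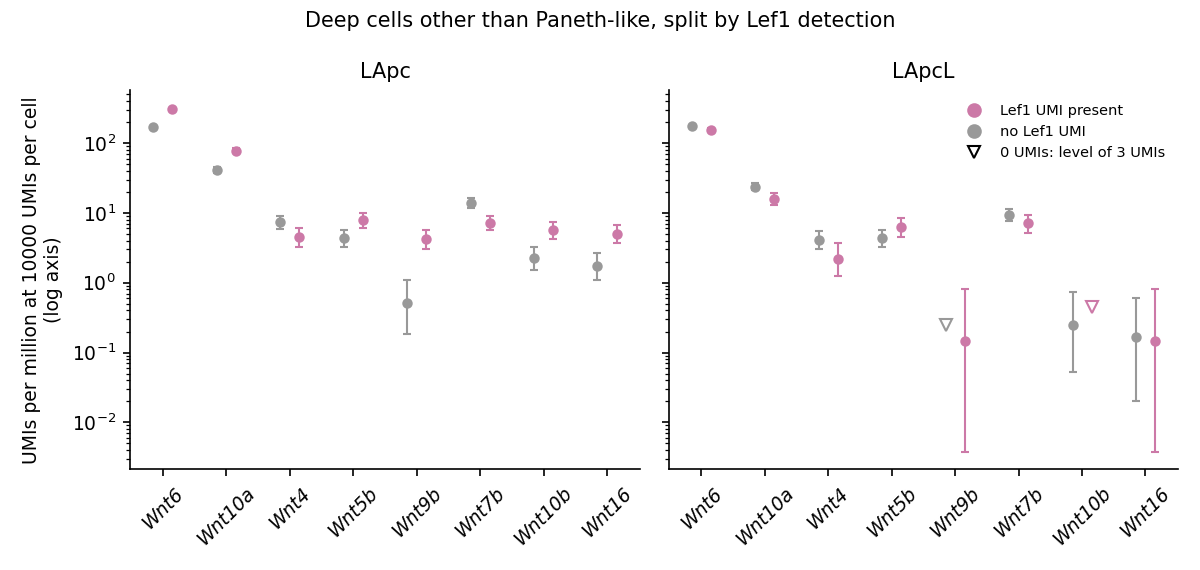
Ligand levels in deep cells other than Paneth-like with and without a Lef1 UMI, in LApc (left) and LApcL (right), in CPM (log axis) with exact 95% Poisson intervals and open triangles for 0 UMIs at the level of 3 UMIs. In LApc, Wnt6, Wnt10a, Wnt5b, Wnt9b, Wnt10b and Wnt16 are higher in Lef1-positive cells, Wnt7b is lower in them, and the intervals of Wnt4 overlap. In LApcL, Wnt6 and Wnt10a are lower in Lef1-positive cells.

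Among the 11 other Wnt genes, 5 had at least 10 UMIs in the deep cells of a library. Wnt7b had 0, 233 and 160 UMIs in WT, LApc and LApcL (10.9 and 8.55 CPM in the mutants, at least 43.9-fold and 34.4-fold above WT). Wnt10b went from 1 to 80 UMIs and back to 3, and Wnt16 from 3 to 68 and back to 3. Their ratios of LApcL to LApc were 0.0427 (0.00863 to 0.129) and 0.0503 (0.0101 to 0.153), beside 0.0248 for Wnt9b. Wnt9a had 0, 17 and 6 UMIs and Wnt7a 0, 14 and 0.

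The genes that release the ligands moved less, apart from Wls. Wls had 336 UMIs in WT (27.9 CPM), 3140 in LApc (147 CPM) and 3146 in LApcL (168 CPM), 5.29-fold higher in LApc than in WT (4.72 to 5.93) and 1.14 times the LApc level in LApcL (1.09 to 1.20). Porcn, at 18, 71 and 54 UMIs, was 2.23-fold higher in LApc than in WT (1.32 to 3.98), which the median-of-ratios factor of 0.758 takes below 2-fold. The other 6 genes of the secretion list did not pass 2-fold, and the median of the list was 0.12 on the log2 scale, below the 0.52 of all genes. By count, 2 of 8 were higher and 0 lower, beside 30.3% and 12.2% of all genes. In Paneth-like cells, where Wnt3 was high, Wls was at 0.328 times the level of the other deep cells in LApc (0.179 to 0.551) and 0.268 times in LApcL (0.176 to 0.390). Of the 8 secretion genes, Wls was the 1 lower in LApc there and Porcn the 1 higher, 2.07-fold on 2 UMIs (0.246 to 7.76). Of all genes, 8.73% were higher and 16.0% lower. In LApcL 0 were higher and 2 were lower, Wls and the sorting nexin gene Snx3 (0.426 times, 0.301 to 0.586), beside 7.08% and 27.8% of all genes. The numbers of lower secretion genes are thus near the shares of all genes.

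On the receiving side, 10 of 15 receptor genes with at least 20 UMIs were higher in LApc than in WT and 2 were lower, with a list median of 1.26 on the log2 scale, beside 30.3% higher, 12.2% lower and a median of 0.52 over all genes. The pseudokinase receptor Ptk7 went from 0 to 532 UMIs (at least 100.3-fold), Fzd10 from 0 to 352 (at least 66.4-fold) and Fzd3 rose 7.59-fold, while Fzd5, a receptor of the intestinal epithelium, was at 0.130 times WT and Fzd4 at 0.331 times. Between LApcL and LApc, 1 of 15 passed 2-fold, the Wnt5a receptor Ror2 (3.19-fold higher, 2.45 to 4.21), a share near the 4.29% higher and 8.72% lower of all genes. Of the R-spondin receptors, which raise the amount of Frizzled at the surface, the stem cell marker Lgr5 was 2.52-fold and Lgr4 2.02-fold higher in LApc than in WT (both below 2-fold after that factor), and Lgr5 was a further 3.22-fold higher in LApcL than in LApc (2.96 to 3.52). It was the 1 gene higher there of 3 R-spondin and receptor genes with at least 20 UMIs, and Lgr6 was the 1 lower, at 0.380 times LApc on 6 against 18 UMIs (0.123 to 0.999). In Paneth-like cells Fzd9 was 23.2-fold the level of the other deep cells in LApc and 53.2-fold in LApcL, on 6 and 29 UMIs. Of 15 receptor genes with at least 20 UMIs, 2 were higher and 1 was lower in the Paneth-like cells of LApc (8.73% and 16.0% of all genes), and 1 was higher and 6 were lower in those of LApcL (7.08% and 27.8% of all genes). These counts and shares are without the median-of-ratios factors, which raise all these LApcL ratios by 0.47 on the log2 scale. Every list here was drawn up with results of these data known.

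The genes with the most similar pattern were ranked by Pearson's r over 13 strata of library and cell class, among 8423 genes; the strata share libraries and no p is given. For Wnt6 these were Bex4 (0.997), Amotl1 (0.995) and Fam89a (0.993), and for Wnt10a Ifitm1 (0.991), Aspscr1 (0.990) and Tenm4 (0.989). Wnt6 and Wnt10a had no UMI in any WT class, so the contrast of WT with the mutants weighs heavily in these values. Wnt3 was closest to Ssr4 (0.961), Clps (0.961) and the receptor tyrosine kinase gene Kit (0.949). The leading gene was Csnk2b for Wnt4 (0.965), Fgfrl1 for Wnt5b (0.964), with the secreted Wnt inhibitor Notum at 0.951, and Tmem47 for Wnt9b (0.856). Wnt11 and Wnt5a had fewer than the 30 UMIs required.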

How the data were processed

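Single cells of 3 organoid libraries were measured by 10x 3′ RNA sequencing, with 1 library per genotype. The deposited matrices hold UMI counts per gene and barcode, made by the authors with Cell Ranger on mm10/GRCm38; the file headers name version 6.0.1 and the labels 2.1.1. Barcodes found in more than 1 library, or with over 20% mitochondrial UMIs, were left out. Remaining cells were thinned to 10000 or 1000 UMIs, summed per library and class, and given as UMIs scaled to 1000000 (CPM) with exact Poisson intervals (positive shares: Clopper-Pearson; ratios: exact conditional binomial). A group at 0 was set at 3 UMIs, ratios past 2-fold were counted, and the background is every gene with at least 20 UMIs summed over both groups. A member with at most 3 UMIs in both groups got no ratio. The 2-fold count for Paneth-like cells needed 10 such cells. Levels of 3′ tags do not compare genes by length. PCR duplicates were collapsed by UMI, but intervals and floors still cover counting error only.

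Doublet calling by Scrublet at its automatic threshold marked 1, 0 and 0 cells and so did not work; instead an alternative removed the highest scores (72, 103 and 173 cells). All 8 ligands are named. Other Wnt genes are named from 10 UMIs, secretion genes as Porcn and Wls, other list genes as up to 3 with the largest ratio past 2-fold. Fzd4, Fzd5, Fzd9, Notum, Kit, the genes near Wnt6 and the Npy and Lef1 splits were picked or described with values in view. Members and lists were chosen with earlier results of these data known. Calculations used Python 3.11.15, numpy 2.4.6, scipy 1.17.1 and scanpy 1.11.5, and were tested on simulated counts.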

Additional observations from a re-analysis of the deposited data

Results flagged for a closer look

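The barcodes found in all 3 libraries, which the comparisons leave out, held ligand UMIs above the limit that a count of 0 allows. They carried endothelial marker genes at 2938 to 3247 CPM. Wnt4 stood at 18.0 CPM in WT, 16.7 CPM in LApc and 17.5 CPM in LApcL, Wnt11 at 5.75, 6.30 and 3.74 CPM, and Wnt5b at 3.12, 2.59 and 2.21 CPM. These sets differ between libraries, and whether their barcodes are cells of these organoids was not tested, so their values say nothing about genotype. They include some deep barcodes. Keeping shared barcodes in took the deep cells other than Paneth-like from 2132 to 2143 in LApc and from 1871 to 1875 in LApcL. The part of these deep barcodes in the unthinned values was not tested. In LApc the shared barcodes had 33.7 CPM of Wnt6 and 11.3 CPM of Wnt10a, and in LApcL 18.0 and 1.87 CPM. With each barcode thinned to 1000 UMIs, Wnt6 came to 0.355, 3.94 and 3.33 CPM over the 3 libraries in that order. Deep cells at that depth had 0, 229.8 and 188 CPM. Single libraries gave no replicate check of these levels.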

How the results depend on the processing

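Of 109 counts of ligands past 2-fold under an alternative, 88 stayed within 1.5 times the reported count, as did their higher and lower parts, and 21 did not. Of 613 ligand ratios, 580 kept their call or moved within their interval, 30 moved and 3 reversed. A ratio within its interval could still change its 2-fold call. Calls changed most often unthinned (8), with another seed (6) and with a mitochondrial limit of 10% (5). The reversals were all Wnt5b in shallow LApcL against LApc cells: 1.07 with another thinning seed, 1.15 unthinned and 2.08 when thinned to 5000 and 500 UMIs. In deep cells, a mitochondrial limit of 10% gave 6 ligands past 2-fold in LApc against WT (5 higher, 1 lower), 5 in LApcL against LApc (0 higher) and 5 in LApcL against WT (4 higher, 1 lower), where 27.4%, 4.28% and 27.6% of all genes were higher and 10.9%, 8.86% and 11.4% lower. Another seed gave 3 in LApcL against LApc (1 higher, 2 lower). A Paneth-like threshold of 1%, or leaving out the goblet-gene-high cells, gave 6 in LApcL against WT (5 higher, 1 lower each). In shallow cells, unthinned counts gave 5 in LApc against WT, 3 in LApcL against LApc and 5 in LApcL against WT. Shallow LApcL against LApc gave 1 with another seed (now higher), 2 when thinned to 500 UMIs, and 0 with a mitochondrial limit of 10% or a minimum of 20 UMIs, which left 1 in LApc against WT. In shallow LApcL against LApc, 4.05% of all genes were higher and 4.91% lower with the other seed, and 4.69% and 5.11% at 500 UMIs. In Paneth-like LApc cells the count was 3 unthinned and 2 with deep cells from 20000 UMIs or a threshold of 5%. In Paneth-like LApcL cells it was 2 when thinned to 5000 UMIs, with deep cells from 20000 UMIs, with a mitochondrial limit of 10% and with a minimum of 20 UMIs. The causes of these shifts were not tested, except that a minimum count tests fewer genes. Wnt4 passed 2-fold downward in LApcL against LApc at 0.495 unthinned, 0.399 at 5000 UMIs and 0.499 with the stricter mitochondrial limit. With size factors 20.0% of all genes were higher in LApcL than in WT. Giving LApc the class shares of LApcL moved the ratio of LApcL to LApc to 0.927 for Wnt6 and 0.505 for Wnt10a. This step, and leaving out the Npy-positive or the goblet-gene-high cells, were chosen after seeing the data. Deep cells from 20000 UMIs gave no shallow value. No paired analysis was possible because each genotype had 1 library. Depth limits Wnt3, Wnt9b, Wnt11 and Wnt5a, with at most 47 UMIs each in a library's deep cells other than Paneth-like.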
